A study of Mus musculus with 2 samples.

Results

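The Hox genes encode homeodomain transcription factors that give cells their position along the head-to-tail axis. In mouse they lie in 4 clusters, HoxA on chromosome 6, HoxB on chromosome 11, HoxC on chromosome 15 and HoxD on chromosome 2, and the number in a gene's name gives its paralog group, which also runs along the cluster. Low numbers lie at the end of a cluster that is switched on early and towards the head, and high numbers at the end used late and towards the tail. In embryonic stem (ES) cells the clusters are known as Polycomb targets: they carry both the repressive mark H3K27me3 and the active mark H3K4me3, and retinoic acid is a classic signal that opens them. The members were all probe sets that name 1 gene whose symbol is a Hox letter and number, at every intensity. This gave 34 genes on 42 probe sets, out of 16563 genes and 45118 probe sets in all: 9 HoxA, 10 HoxB, 6 HoxC and 9 HoxD genes.

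The study used Affymetrix arrays to set mouse ES cells with a knockdown of H2A.B, a histone H2A variant without the usual C-terminal tail, against control cells. Both groups were feeder-free ES cells kept on gelatin with serum and ESGRO, and both carried a pMSCV-neo retrovirus in which the U6 promoter drives the hairpin, against H2A.B in the H2A.B KD group and with a control sequence in the control KD group. Both were under G418 for 2 to 4 weeks, and the labels do not say whether the cells were a pool or 1 clone. Each group had 1 array, so there is no replicate error, no test could be run, and every difference describes these 2 arrays. Precision is limited by that number of arrays.

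Values are log2 intensities made with RMA, differences are knockdown minus control on the log2 scale, and a gene is represented by its probe set with the highest mean. The fixed rule of size was a difference of at least 2-fold, that is, 1 on the log2 scale. Brightness depends on each probe set's sequence, so levels are compared between the arrays and not between genes. The table falls into a first, a middle and a last section, set by the rows between which control values are repeated from rows just above. The size of differences was not alike in the sections: the median absolute difference over all genes was 0.04 in the first section (9398 genes), 0.22 in the middle (3400 genes) and 0.23 in the last (3765 genes). The section of each Hox result is therefore given. None of the 42 Hox probe sets held a value that was left out. However, 5 of them (Hoxa2, Hoxb5, Hoxb13, Hoxd9 and Hoxd10) lie between rows 2054 and 4710. Among those rows 616 knockdown values rise in steps of 1 and were left out. The ES cell label was met by its markers, with 7 of 8 listed markers usable and log2 intensities from 10.14 to 12.65 in control cells and from 10.12 to 12.64 in knockdown cells. H2A.B itself is named by no probe set, so the knockdown could not be checked.

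The clusters are known for CpG-rich promoters, and the 250 bases upstream of the RefSeq start (GRCm38.p6) are shown for 3 members with results described below that have an entry, with every CG in capitals. The HoxA windows are read on the minus strand and the HoxB windows on the plus strand. The Hoxa7 window is chr6:52218574-52218823, that of Hoxb4 is chr11:96318017-96318266 and that of Hoxa3 is chr6:52213068-52213317.
Hoxa7: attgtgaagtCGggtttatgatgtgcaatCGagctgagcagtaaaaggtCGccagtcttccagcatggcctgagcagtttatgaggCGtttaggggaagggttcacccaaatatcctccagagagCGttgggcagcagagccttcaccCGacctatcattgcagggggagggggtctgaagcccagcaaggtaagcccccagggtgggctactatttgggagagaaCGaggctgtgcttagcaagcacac
Hoxb4: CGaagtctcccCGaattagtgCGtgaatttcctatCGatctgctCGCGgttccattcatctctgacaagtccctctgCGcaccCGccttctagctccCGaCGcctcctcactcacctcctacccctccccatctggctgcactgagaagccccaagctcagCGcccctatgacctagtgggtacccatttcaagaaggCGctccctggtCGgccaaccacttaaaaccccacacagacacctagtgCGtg
Hoxa3: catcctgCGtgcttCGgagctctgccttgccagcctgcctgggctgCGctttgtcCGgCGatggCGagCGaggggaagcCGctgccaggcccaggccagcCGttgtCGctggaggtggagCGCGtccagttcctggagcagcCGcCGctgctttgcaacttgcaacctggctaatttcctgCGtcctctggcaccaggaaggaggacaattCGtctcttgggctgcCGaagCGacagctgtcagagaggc
These windows hold 7 CG dinucleotides for Hoxa7, 14 for Hoxb4 and 18 for Hoxa3, all upstream of the transcript. Entries existed for 21 of the 34 genes, with 23 starts, and their windows held a median of 12 CG dinucleotides, from 2 to 35, against a median of 6 over 32851 starts of all genes. The median GC content was 58.0% against 52.4%. The observed over expected CG ratio had a median of 0.687 against 0.373. Hoxa7, with a ratio of 0.386, was thus close to the median of all genes, while Hoxb4 (0.760) and Hoxa3 (0.687) were at or above that of the Hox windows.

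Hox proteins bind DNA together with Pbx cofactors, often at the letters TGATNNAT, where N is any base. On either strand this motif occurred in the upstream windows of 4 Hox starts, 17.4% of the 23, and in 7.68% of all windows of that length. The starts are those of Hoxa2, Hoxb1, Hoxb8 and 1 of 2 Hoxd11 starts. Hoxb1, a gene of the hindbrain known for maintaining its own expression with Pbx proteins, and Hoxa2 are shown with 11 bases on each side and the motif in capitals, Hoxb1 on its own strand and Hoxa2 on the opposite strand.
Hoxb1: tgattggggggTGATGGATgggcgctggga
Hoxa2: cactgtctgttTGATTGATccaaaaaagtc
The windows hold these letters, and no binding was measured. Hoxb1 had log2 intensities of 3.09 in control cells and 3.14 in knockdown cells (0.05), and Hoxa2, a gene of the hindbrain and second branchial arch, 2.89 and 2.91 (0.02). Both were nearly level.

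Most Hox genes had nearly the same value on both arrays. Of the 34 genes, 31 had a signal below the median over all genes (a mean of 6.73 over both arrays), which places them on the array's intensity range and does not rank their transcripts against other genes; Hoxa3, Hoxa7 and Hoxc9 lay above it, and Hoxa9, at 6.74 in control cells and 6.70 in knockdown cells, fell just below. On the knockdown array 1 Hox gene, Hoxb2, was at least 2-fold higher, where 1.13% of all genes were, and 0 were at least 2-fold lower, where 2.91% were. With a 1.5-fold rule there were 2 higher (Hoxb2 and Hoxa7, background 2.98%) and 0 lower (background 6.24%). With so few members, these counts are near the background shares. Of the 34 genes, 17 lay above 0 and 17 below, with a median of 6.65e-05, against a median of -0.0056 over all genes. In bulk cells, a change in the number of cells that express a gene and in its RNA per cell cannot be told apart. A difference of less than 0.1 was found for 21 Hox genes (61.8%), against 57.8% of all genes. Within 0.25 were 24 (70.6%), against 77.6%, and 2 differed by 0.5 or more, against 11.1% of all genes.

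**Figure D1:**
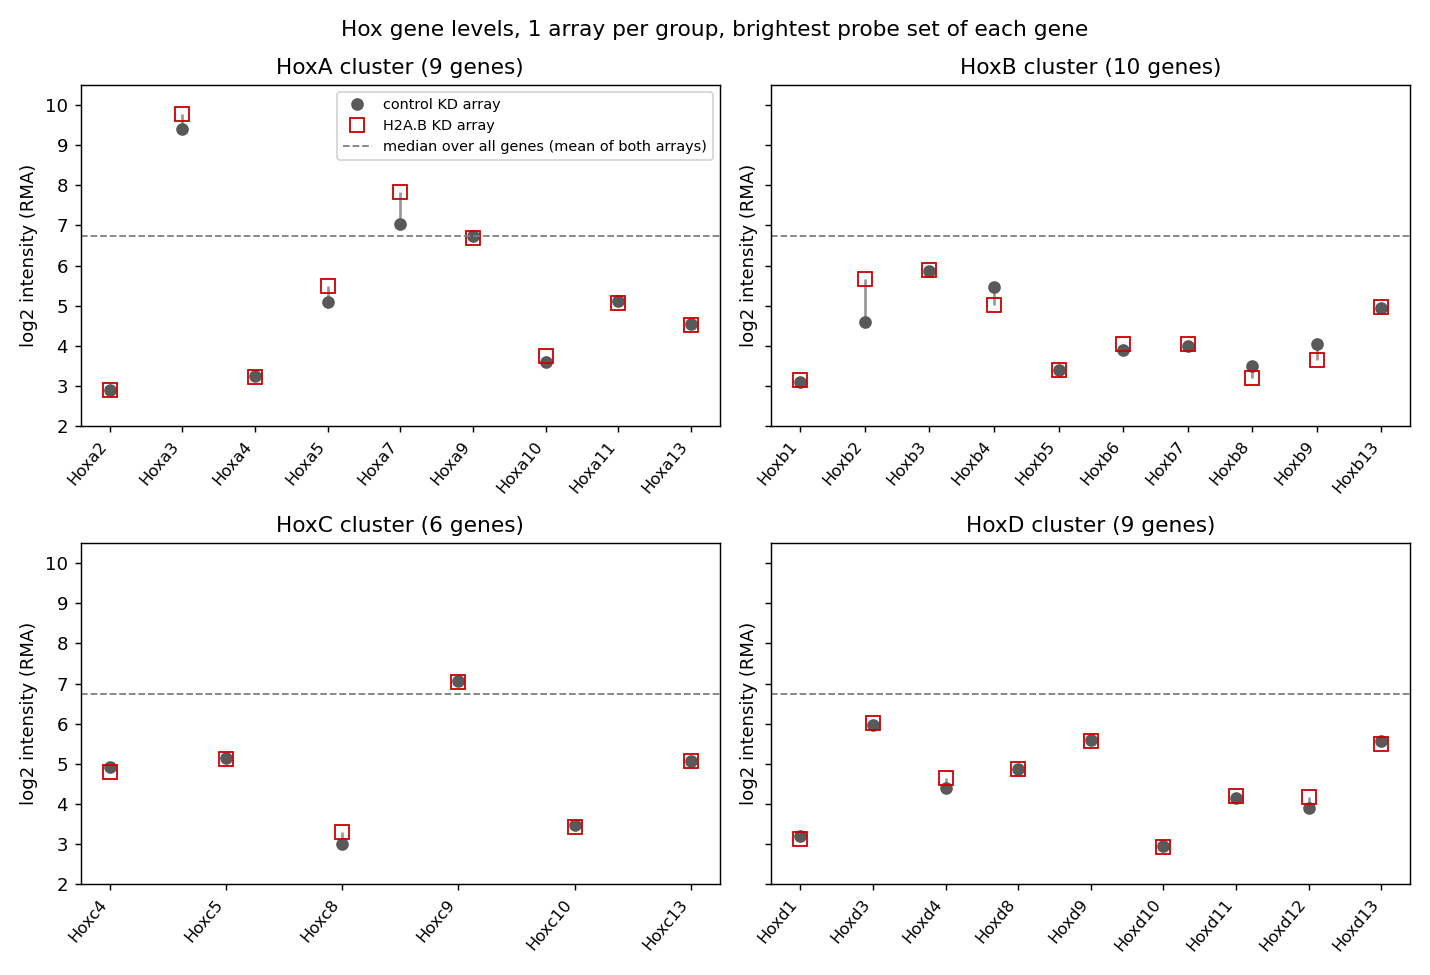
Log2 intensity of each Hox gene (vertical axis) in the 4 clusters, genes ordered by paralog group; filled circles are the control KD array, open squares the H2A.B KD array, 1 array each, and the dashed line is the median over all genes, 6.73. Most pairs of symbols overlap; Hoxb2 and Hoxa7 have the widest gaps, 1.08 and 0.79.

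Hoxb2, a gene of hindbrain rhombomeres, was the Hox gene with the largest difference. Its single probe set had 4.59 in control cells and 5.67 in knockdown cells, a difference of 1.08 or 2.11-fold. It lies in the last section, where 2.42% of all genes were 2-fold higher and 5.58% 2-fold lower. Of the 3765 genes there, 86 (2.28%) were as high or higher. Of the 2098 there that lay below the median over all genes, as Hoxb2 did, 68 were 2-fold higher and 181 2-fold lower. The Hoxb2 row is 55 rows below the last repeated control value. Among 192 usable probe sets within 100 rows on either side, 16 (8.33%) had an absolute difference as large, and their median absolute difference was 0.18.

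No other HoxB gene differed by as much as Hoxb2. Hoxb3, its neighbour, had 5.86 in control cells and 5.89 in knockdown cells (0.03) in the first section. The dimmer Hoxb3 probe set, in the last section, differed by -0.01. Hoxb4, a gene known for expanding blood stem cells, had 5.46 and 5.01 (-0.45), and on its second probe set 3.71 and 3.17 (-0.54). Both Hoxb4 probe sets were thus lower in knockdown cells by similar amounts, and both carry the same source sequence in the annotation and lie in the last section, where 17.6% of genes were at -0.45 or lower.

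Towards the tail end of HoxB the values went in both directions. Hoxb8, a gene of blood progenitors and spinal cord, had 3.50 and 3.20 (-0.30), and Hoxb9, of the thoracic region, had 4.04 and 3.63 (-0.41), both in the last section. Hoxb6 differed by 0.15 in that section. Hoxb5 (3.41 in control cells and 3.40 in knockdown cells), Hoxb7 (4.00 and 4.05) and Hoxb13 (4.94 and 4.97), the prostate and tail-end member, were read from the first section and were all within 0.1. Within HoxB, every difference of 0.15 or more was thus read from the last section, with 2 above and 3 below 0. The cluster had 6 genes above 0 and 4 below, with a median of 0.03.

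In HoxA the 2 genes above the median of all genes were higher in knockdown cells. Hoxa7, a gene of the trunk that is also active in some leukaemias, had 7.05 in control cells and 7.83 in knockdown cells, a difference of 0.79 or 1.72-fold on its single probe set. It lies in the last section, 157 rows below the last repeated control value; 141 of 3765 genes there (3.75%) were as high or higher, and 30 of the 200 probe sets within 100 rows (15.0%) had an absolute difference as large. The Hoxa7 difference is thus smaller than the 2-fold rule and within what other genes of those rows showed.

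Hoxa3, needed for the thymus and parathyroid, had 9.41 in control cells and 9.76 in knockdown cells (0.36) on its brightest probe set, whose s suffix marks probes shared by more than 1 transcript. Its other 3 probe sets had 6.29 and 6.18 (-0.11), 4.76 and 4.72 (-0.03), and 3.25 and 3.35 (0.10). The probe set at -0.11 carries the same source sequence as the one at 0.36, so the Hoxa3 probe sets did not share a direction. In the first section, where the brightest one lies, 1.02% of genes were as high or higher.

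Hoxa5, a gene of lung and trunk patterning, had 5.10 and 5.49 (0.39) and lies in the middle section, where 9.53% of genes were as high or higher. Its row is also the source of a control value repeated further down. Hoxa10, of the uterus and limb, had 3.59 and 3.74 (0.15). The remaining HoxA genes were level: Hoxa4 had 3.24 and 3.22, Hoxa9 differed by -0.04, Hoxa11 had 5.11 and 5.08, and Hoxa13, of the hand and foot plate, had 4.55 and 4.51. The cluster had 5 genes above 0 and 4 below (median 0.02). The genes on either side of Hoxa7 with a value differed by 0.39 (Hoxa5, middle section) and -0.04 (Hoxa9, first section). Hoxa6 is named by no probe set here.

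**Figure D2:**
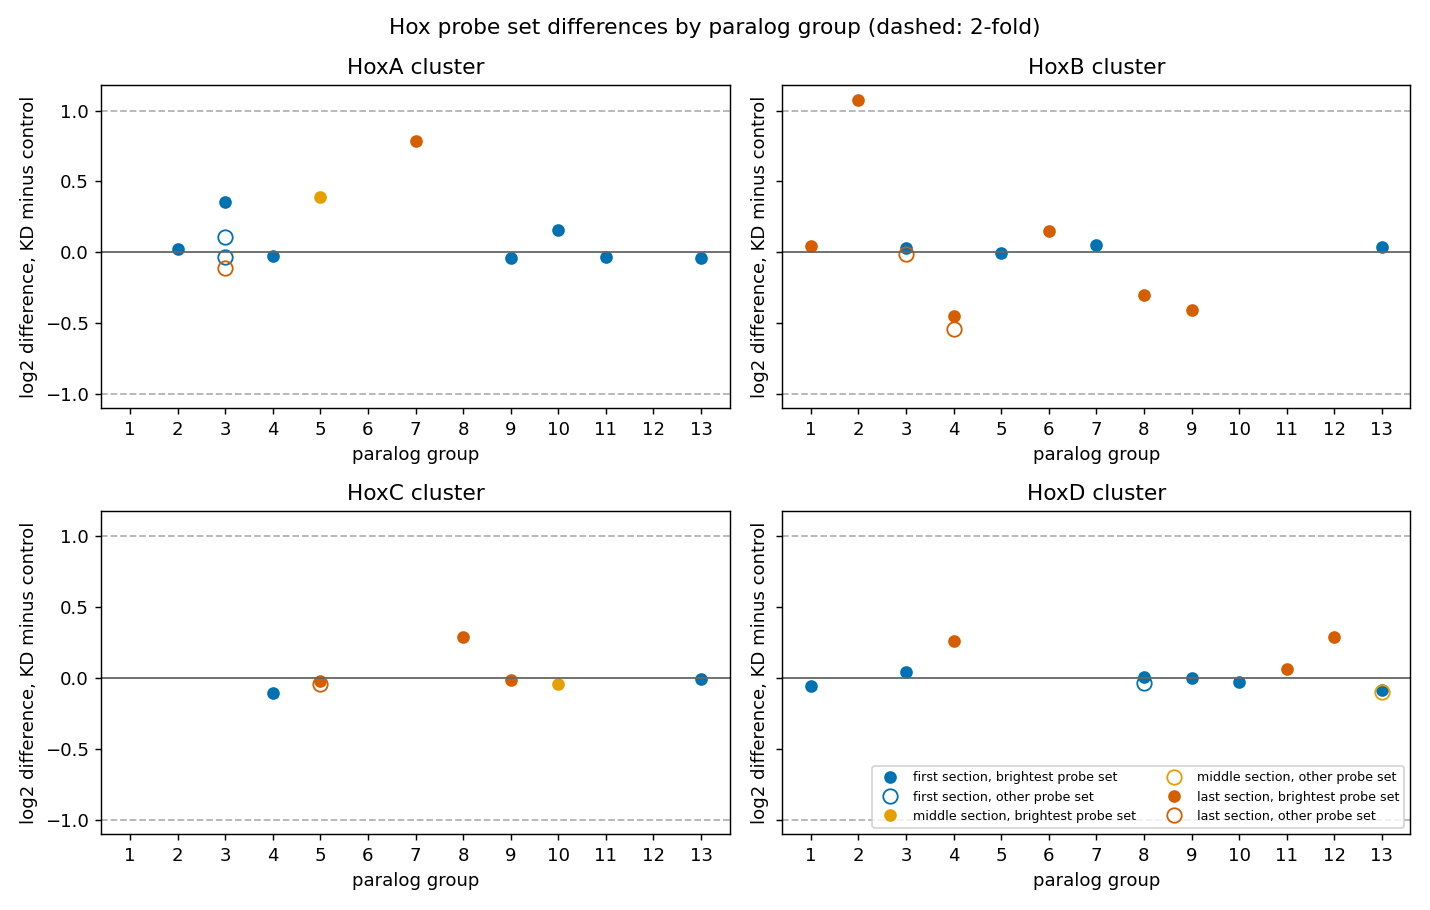
Log2 difference, knockdown minus control, of each Hox probe set (vertical axis) by paralog group (horizontal axis) in the 4 clusters; filled points are the brightest probe set of a gene, open points its other probe sets, colours give the table section and dashed lines mark 2-fold. One point, Hoxb2 at 1.08, lies beyond a dashed line, and first-section points lie near 0 apart from Hoxa3 at 0.36.

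HoxC and HoxD had 0 genes at 0.5 or more, and the largest difference was 0.29 in each. In HoxC, Hoxc9, a gene of thoracic motor neurons and the only HoxC gene above the median of all genes, had 7.06 in control cells and 7.05 in knockdown cells. Hoxc8 had 3.01 and 3.30 (0.29), and Hoxc4 had 4.92 and 4.81 (-0.11). Hoxc9 was thus level in the last section, where the median absolute difference over all genes was 0.23.

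The other HoxC values were level too. Hoxc5 had 5.15 in control cells and 5.13 in knockdown cells, with -0.04 on its second probe set. Hoxc10, of the lumbar region, had 3.47 and 3.42, and Hoxc13, a gene of hair and nails, 5.08 and 5.07. Of the 6 genes 5 lay below 0, but 4 of the 6 were within 0.1 (median -0.02). Hoxc6, Hoxc11 and Hoxc12 are named by no probe set here.

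In HoxD, the genes of limb and digit patterning were within 0.1 apart from Hoxd12. Hoxd13, in which mutations fuse digits, had 5.57 in control cells and 5.49 in knockdown cells (-0.08), with -0.10 on its other probe set. Hoxd10 had 2.95 and 2.92, and Hoxd9 5.58 and 5.58. Hoxd11 had 4.15 and 4.21 (0.06), and Hoxd12 had 3.89 and 4.18 (0.29). The Hoxd12 difference was the largest of the cluster and was read from the last section.

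At the head end of HoxD, Hoxd3 had 5.97 and 6.01, Hoxd1 had 3.19 and 3.13, and Hoxd4 had 4.40 and 4.66 (0.26). Hoxd8, in the middle of the cluster, had 4.86 on both arrays, with -0.03 on its other probe set. Of the 9 HoxD genes, 5 lay above and 4 below 0 (median 0.0032), and the only ones at 0.1 or more, Hoxd4 and Hoxd12, were read from the last section.

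The size of a Hox difference went with the section it was read from. Of 19 Hox genes in the first section, 16 (84.2%) were within 0.1, as were 83.8% of all genes there. Their values ran from -0.11 to 0.36, with a median absolute difference of 0.04, against 0.04 over all genes of the section. Of 13 in the last section, 4 (30.8%) were within 0.1, against 23.0% of all genes there, and they ran from -0.45 to 1.08 with a median absolute difference of 0.29, against 0.23. The other 2 genes, Hoxa5 and Hoxc10, lay in the middle section. Within 0.25 were 94.7% of the Hox genes in the first section, against 95.3% of all genes there. In the last section 38.5% were, against 52.7%. In the first section the spread of the Hox genes was therefore near that of all genes. In the last section, with 13 Hox genes, the measures went both ways. The part of the table's construction in the larger values was not tested.

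For single probe sets, too, size went with the section. Around the 22 Hox probe sets of the first section the median absolute difference of probe sets within 100 rows was 0.03 to 0.06. Around the 17 of the last section it was 0.12 to 0.19. Over all 42 Hox probe sets, 0 had an absolute difference that fewer than 5% of their row neighbours reached; Hoxa3 at 0.36 (5%), Hoxb2 (8.33%) and Hoxa10 (9.50%) came closest. Of the 6 Hox genes with more than 1 probe set, Hoxb4, Hoxc5 and Hoxd13 had the same sign on all of them, and Hoxa3, Hoxb3 and Hoxd8 did not.

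**Figure D3:**
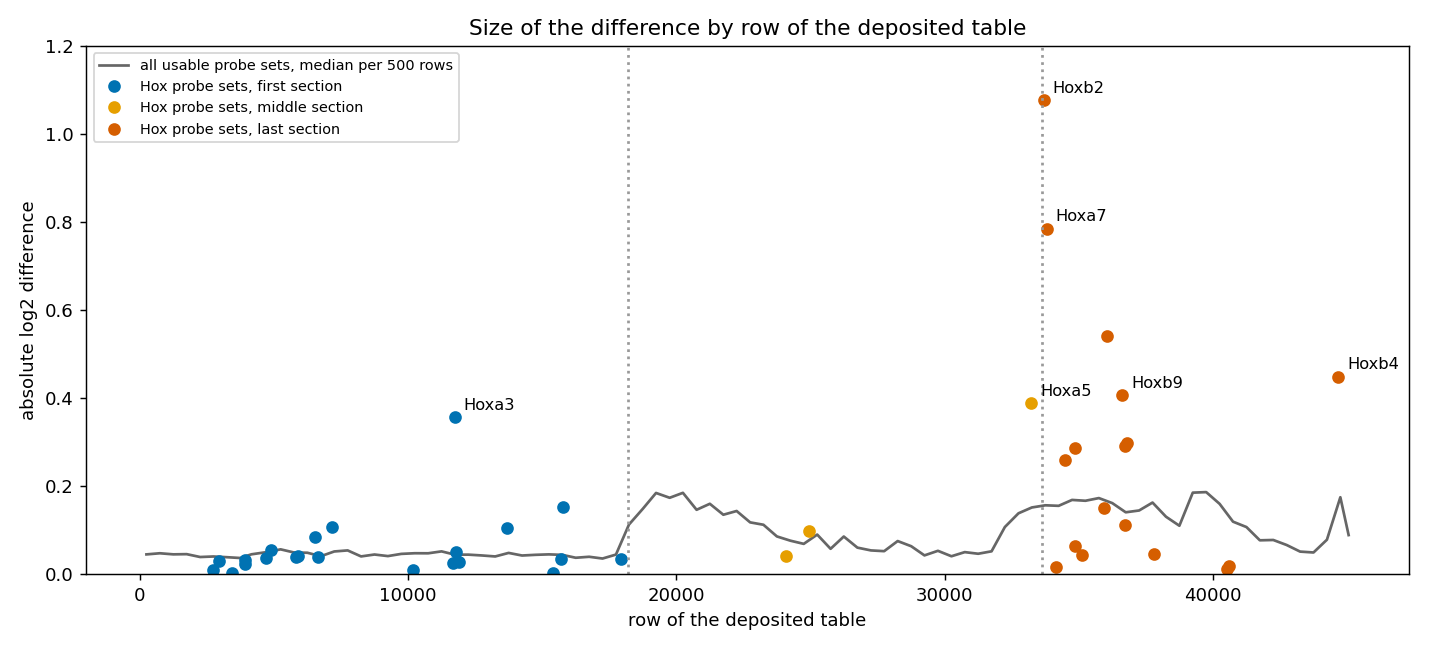
Absolute log2 difference (vertical axis) against the row of the deposited table (horizontal axis); points are the 42 Hox probe sets coloured by section, the line is the median over all usable probe sets in bins of rows, and dotted lines are the first and last repeated control value. The line and the Hox points are both low in the first section, and Hoxb2 and Hoxa7 sit just after the second dotted line.

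Along the clusters, fewer genes lay above 0 at the tail end, mostly by small amounts. For description, after the values were seen, the genes were split into paralog groups 1 to 4, 5 to 8 and 9 to 13. The first band had 11 genes, 7 above 0 (median 0.03, from -0.45 to 1.08), and the second 9 genes, 6 above 0 (median 0.05, from -0.30 to 0.79). The tail-end band had 14 genes, 4 above 0 (median -0.02, from -0.41 to 0.29). Of those 14, 11 were within 0.1. In the first section alone 2 of 9 tail-end genes lay above 0 (median -0.03) and 6 of the other 10 did, while in the last section 2 of 4 tail-end genes did (median 0.02). Over all genes 47.3% lay above 0. In some groups paralogs differed: in group 2 Hoxb2 was at 1.08 and Hoxa2 at 0.02, and in group 7 Hoxa7 at 0.79 and Hoxb7 at 0.05. In both, the larger value was read from the last section and the smaller from the first, so gene and section cannot be told apart. In group 4 Hoxb4 was at -0.45 and Hoxd4 at 0.26, both in the last section. In groups 1, 11 and 13 all genes with a value were within 0.1.

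Hox proteins act with TALE cofactors, of which Meis1 was lower and most others were level. Of 8 TALE genes with a usable value, 0 were 2-fold higher (background 1.13%, last section 2.42%) and 1 was 2-fold lower (2.91%, last section 5.58%). That gene was Meis1, a partner of Hoxa9 in blood, with 4.30 in control cells and 3.27 in knockdown cells (-1.03), and with 4.03 and 2.997 (-1.04) on its other probe set, both in the last section. Pbx4 differed by -0.26 in the last section and Pbx2, a ubiquitous partner, by 0.14 in the first, and the list median was 0.01. Both Meis1 probe sets were thus lower by the same amount at low intensity.

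Among upstream regulators of the clusters, 0 of the Cdx, ParaHox and retinoic acid genes listed were beyond 2-fold. Over all genes 1.13% were 2-fold higher and 2.91% 2-fold lower, so in lists this small 0 is near the background. Cdx genes, which switch on trunk Hox genes, and the ParaHox genes had 6 members with 0 beyond 2-fold (median -0.04). Gsx1, a forebrain and spinal cord gene, had 5.52 and 4.85 (-0.67) and Cdx1 differed by 0.23, both in the last section. Cdx2, in the first section, differed by -0.08. Of 15 retinoic acid receptors and enzymes, 0 were beyond 2-fold and 14 (93.3%) were within 0.25 (median 0.01), against 77.6% of all genes. The retinoic acid-degrading enzyme gene Cyp26b1 had 5.48 and 5.02 (-0.47) and the binding protein gene Crabp2 differed by 0.23, both in the last section. The retinal reductase gene Dhrs3 differed by -0.20 in the middle section. The median absolute difference over all genes was 0.22 in the middle section and 0.23 in the last. Cyp26a1, which retinoic acid is known to induce in ES cells, had 6.07 and 6.05.

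The Polycomb genes, whose products repress the clusters, were 25 with 0 at 2-fold higher and 1 at 2-fold lower (background 1.13% and 2.91%). Their median was 0.03, and 21 (84.0%) were within 0.25, as were 77.6% of all genes. The lower one was Phc3, of Polycomb repressive complex 1, in the last section, where 5.58% of all genes were 2-fold lower. It had 6.40 in control cells and 5.34 in knockdown cells (-1.06). Phc2, of the same complex, had 2.75 and 3.34 (0.59) on its single probe set in the first section. There 44 of 9398 genes were at least 1.5-fold higher, and the Phc2 control value is near the lowest over all genes, 2.37. Eed, a core subunit of complex 2, had 11.99 and 11.66 (-0.33). Ezh2, the H3K27 methyltransferase, differed by 0.06 and its partner Suz12 by 0.01. The H2A ubiquitin ligase genes of complex 1, Ring1 and Rnf2, differed by 0.08 and 0.01. Of the core subunits of complex 2 named, Eed thus had the largest difference, and it was read from the middle section.

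Of 7 Trithorax and H3K27 demethylase genes, which oppose Polycomb, 0 were beyond 2-fold (median 0.02). With 1.13% of all genes 2-fold higher and 2.91% 2-fold lower, 0 of 7 is near the background. The H3K4 methyltransferase gene Kmt2b had 9.33 and 8.70 (-0.63) in the last section, and Men1, of the same methyltransferase complex, differed by 0.09 in the first. The demethylase gene Kdm6a differed by -0.25 in the first section. Its dimmer probe sets did not share a direction, at -0.14 in the first section and 0.16 in the middle. Kmt2a, the best-known activator of Hox genes, had no usable value.

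Beside the clusters, 11 neighbouring genes had a value and 1 was 2-fold higher (median 0.03), where 1.13% of all genes and 2.42% of those in the last section were. Ttll6, a tubulin glutamylase gene beyond the tail end of HoxB, had 6.31 in control cells and 7.72 in knockdown cells, a difference of 1.41 or 2.65-fold, in the last section. Hoxb13, the nearest Hox gene to it, differed by 0.03 in the first section. Hibadh, near HoxA, differed by 0.26, with 0.22 on its other probe set. Lnpk, near HoxD, differed by -0.16 and was lower on its dimmer probe sets too, at -0.24 in the last section and -0.94 in the first (4.49 in control cells and 3.55 in knockdown cells). Evx1 (-0.05) and Evx2 (0.03), homeobox genes that adjoin HoxA and HoxD, were level. Ttll6 and Hoxb13 were read from different sections, so in this pair gene and section cannot be told apart.

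**Figure D4:**
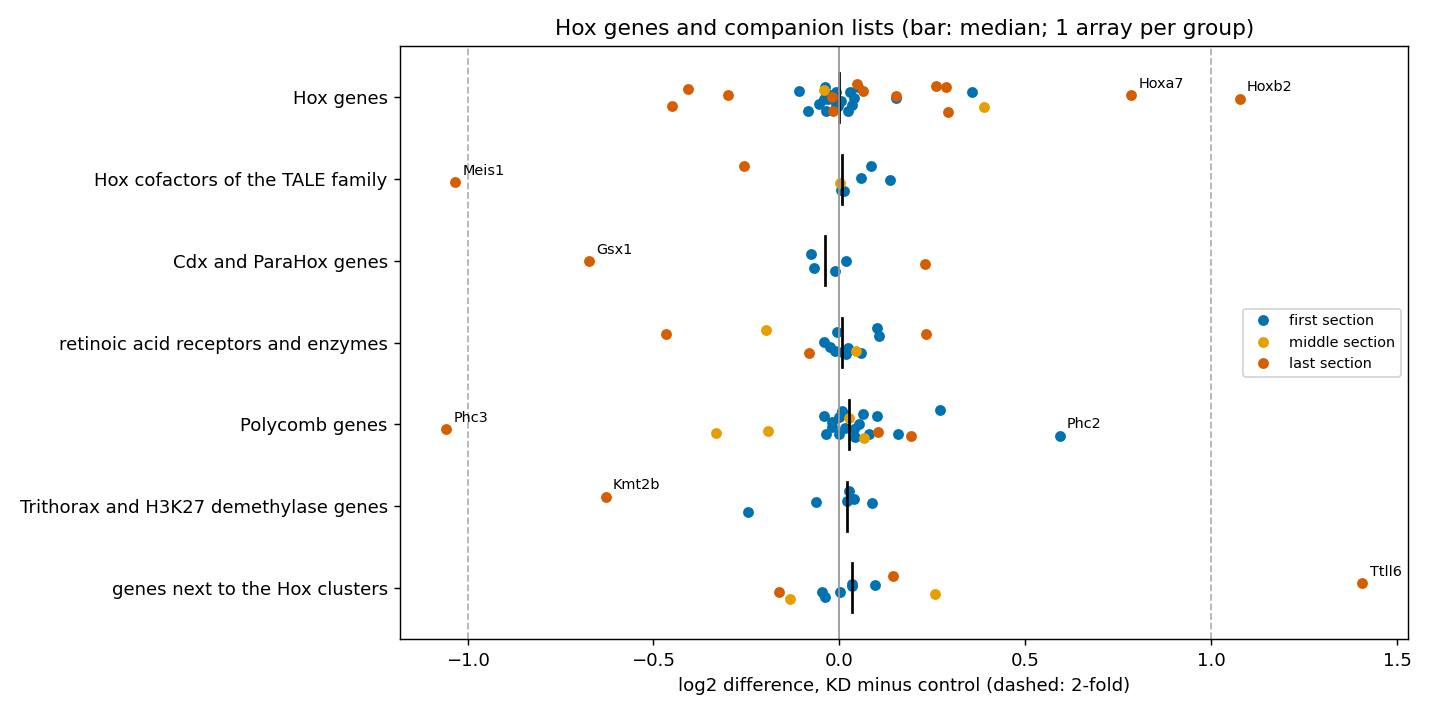
Log2 difference, knockdown minus control (horizontal axis), of the Hox genes and of 6 companion lists; each point is a gene coloured by table section, bars are list medians and dashed lines mark 2-fold. All medians lie near 0, between -0.04 and 0.03, and Meis1, Phc3, Hoxb2 and Ttll6, all of the last section, are beyond the dashed lines.

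Markers of differentiated cells, some of which express Hox genes, are given beside these values. Of 5 mesoderm markers, 1 was 2-fold lower, against 2.91% of all genes and 5.58% of those in the last section. It was Tbx6 (6.65 in control cells and 5.002 in knockdown cells, -1.65, last section), and Kdr differed by 0.53 in the same section. Of 5 neural markers, 0 were beyond 2-fold on their brightest probe set, where 1.13% of all genes were higher and 2.91% lower. Within 0.1 were 2 (median -0.10), against 57.8% of all genes. Pax6 was at -0.78 on its brightest probe set, in the first section, and at 0.00, -0.03 and 0.03 on its others. Nes was at 0.33 in the last section, and Elavl4 was at -0.14 in the first. The dimmer probe sets of Elavl4, both in the last section, were at -2.99 (6.77 in control cells and 3.78 in knockdown cells) and -0.68. The 6 endoderm markers were within 0.25 (from -0.14 to 0.03), as were 5 trophectoderm markers and 7 fibroblast or feeder markers (from -0.09 to 0.25). Of all genes, 77.6% were within 0.25. Over the fibroblast markers log2 intensities ran from 4.14 to 7.77 in control cells and from 4.05 to 8.01 in knockdown cells. Their part in the Hox values was not tested.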

How the data were processed

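Expression was measured on 2 Affymetrix arrays, 1 per group. The authors made the values, taken here as log2 intensities because the scale is not given, with RMA, per the submitters' processing notes (version not given in the sources used here). The deposited knockdown column, listed as a score only because it mixes log2 intensities with other values, held 616 values rising in steps of 1 between rows 2054 and 4710 and 2 other values above 20; these were left out. Control values identical to a value up to 20 rows above (1455, rows 18185 to 33642) were left out too. The rows before, between and after those repeats form the 3 sections. Names came from the platform annotation (28898 probe sets name 1 gene), with symbols updated through GRCm38.p6 gene identifiers. Promoter sequences come from RefSeq. No centring or intensity filter was used. With 1 array per group there was no test. The genes named in full are those at or above the median of all genes, those with a probe set at 0.5 or more, the brightest and dimmest of each cluster, and the list members with the largest difference; all other Hox genes are named with values. No replicate could be left out. The members, lists and alternatives were chosen with earlier results of these data known. The procedure was tested on simulated arrays whose noise was alike in all rows, so that test cannot speak to the differences between sections. Python 3.11.15 with pandas 2.3.3 and statsmodels 0.14.6 was used.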

Additional observations from a re-analysis of the deposited data

How the results depend on the processing

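The single Hox gene at least 2-fold higher, Hoxb2, gave a count of 1 with the median over probe sets, without suffixed probe sets, with median or lowess centring, with either handling of repeats and in the last section alone. The count was 0 in the first or middle section alone and at or above the gene median, since Hoxb2 lies in the last section and below that median, and 2 with the 1.5-fold rule; 0 were lower throughout. The median over Hox genes was 0.36 at or above the gene median, where 3 genes are left. The HoxA median was 0.39 in the middle section alone, from Hoxa5 only, and 0.34 in the last, from Hoxa7 and a dimmer Hoxa3 probe set. At or above the gene median it was 0.57, from Hoxa3 and Hoxa7. The HoxD median was -0.10 in the middle section alone, from a dimmer Hoxd13 probe set only. In the last section alone it was 0.26, from Hoxd4, Hoxd11 and Hoxd12. Hoxa3 turned to 0.04 with the median over its probe sets and to -0.11 without suffixed probe sets or in the last section alone. In the last section alone the list medians were -0.26 for TALE cofactors (Meis1, Pbx4 and Pknox1) and -0.22 for Cdx and ParaHox genes (Cdx1 and Gsx1). The Trithorax value there, -0.63, is Kmt2b alone. The 2-fold count of 1 in the TALE, Polycomb and neighbour lists was 0 in the first or middle section alone, and for TALE and Polycomb genes also at or above the gene median. The 1.5-fold rule gave 2 Polycomb genes, 1 ParaHox gene and 1 Trithorax gene. No paired analysis was possible because each group has 1 array. Signal over background was not analysed, and most Hox genes have a low signal, so their values and differences are uncertain.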

Other observations

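Antisense transcripts named for the Hox clusters are outside the rule and were chosen after their values were seen. Hoxb5os, antisense to the middle of HoxB, had log2 intensities of 6.29 in control cells and 7.13 in knockdown cells (0.84) in the middle section. Hoxb5, in the first section, differed by -0.01. Hoxa11os had 2.97 and 3.21 (0.23) in the last section, while Hoxa11 differed by -0.04 in the first. Hoxd3os1 (3.99 and 3.98) and Hoxaas2 (4.38 on both arrays), in the first section, were level.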
